A study of Mus musculus with 24 samples.

Results

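The 10 genes described here are the bone morphogenetic protein (BMP) ligands Bmp2, Bmp4, Bmp5 and Bmp7, the secreted antagonists Nog, Grem1, Chrdl1 and Chrdl2, and the homeobox genes Msx1 and Msx2. Each was taken as the probe set that carries its symbol alone on the Affymetrix Mouse430_2 array and has the highest mean over all 24 arrays. They are 10 of 18193 genes with such a probe set, and all 10 passed the filter on dim values that left 13837 genes for testing. Values are log2 levels after robust multi-array averaging (RMA), which puts arrays on 1 scale but gives no comparison of level between genes.

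The knockout embryos carried Wnt1cre and Alk5fl/fl and came from Wnt1cre;Alk5fl/+ by Alk5fl/fl matings. They were compared with control littermates, whose own alleles the labels do not spell out, on the strain label C57B6. All embryos were taken at embryonic day 12.5 and mutants were recognised by cleft palate and a calvarial defect. Mandible and maxilla were each divided into a distal and a proximal end, with 4 knockout arrays and 2 control arrays for each of the 4 parts, 16 knockout and 8 control arrays in all. Alk5, listed as Tgfbr1, is the type I receptor for TGF-beta. Wnt1cre acts in neural crest, so the knockout parts keep the receptor in epithelium, endothelium and other tissue that does not come from the crest. The labels do not say whether arrays came from separate embryos, and each p-value covers no more than the spread of these arrays, which may be technical.

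BMPs are dimeric ligands of the TGF-beta superfamily that signal through type I and type II serine/threonine kinase receptors to Smad1, Smad5 and Smad9. Noggin, gremlin and the chordin-like proteins bind BMPs outside the cell and keep them from their receptors. In the facial prominences BMP4 from epithelium and distal mesenchyme maintains Msx1 and Msx2, and Msx1 is needed for tooth and palate growth in the mouse.

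Promoters are shown for Bmp4, Msx1 and Msx2 because the levels of these 3 genes moved together across the arrays, as described further on. RefSeq promoter sequence was at hand for 5 of the 10 genes, these 3 together with Bmp5 and Grem1. Each line gives the 250 bases before the annotated start on GRCm38.p6, 5′ to 3′ on the gene's own strand. Bmp4 spans chr14:46390670-46390919, Msx1 spans chr5:37824586-37824835 and Msx2 spans chr13:53472781-53473030, all on the minus strand. Capitals mark CCAAT and the homeodomain core TAATT, read on both strands. TAATT matches on opposite strands may overlap.
Bmp4: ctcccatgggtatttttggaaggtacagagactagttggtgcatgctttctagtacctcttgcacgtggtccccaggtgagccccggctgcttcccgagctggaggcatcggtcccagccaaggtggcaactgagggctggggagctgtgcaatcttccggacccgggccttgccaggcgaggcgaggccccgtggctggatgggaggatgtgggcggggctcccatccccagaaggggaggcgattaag
Msx1: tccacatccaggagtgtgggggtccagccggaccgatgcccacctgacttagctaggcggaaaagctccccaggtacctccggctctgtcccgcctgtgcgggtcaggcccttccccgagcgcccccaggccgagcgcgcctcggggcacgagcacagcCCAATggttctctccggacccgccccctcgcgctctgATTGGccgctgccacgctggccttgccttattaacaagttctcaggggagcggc
Msx2: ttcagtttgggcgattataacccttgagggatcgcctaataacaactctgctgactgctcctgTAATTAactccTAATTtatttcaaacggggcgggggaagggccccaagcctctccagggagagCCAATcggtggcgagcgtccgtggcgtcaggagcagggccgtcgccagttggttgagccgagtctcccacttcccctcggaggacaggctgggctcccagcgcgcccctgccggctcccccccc
No CCAAT or TAATT match was found in the Bmp4 window. Msx1 held 2 CCAAT matches, and Msx2 held 1 CCAAT match and 3 TAATT matches, of which 2 overlap. Over 27025 promoters of the same length, 34.5% held CCAAT and 25.4% held TAATT, so these matches are common ones. The palindrome GGCGCC, a sequence that BMP-regulated Smads can bind, was in 9.54% of all promoters. It was in none of the 3 shown, and of the other 2 members Grem1 held 1 match. The 3 windows had G and C at 63.2% (Bmp4), 68.0% (Msx1) and 61.6% (Msx2) of bases, against a median of 52.0% over all promoters.

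Before the results, some features of the arrays that touch them are given. The knockout arrays fell in 2 sets by replicate number. In knockouts 1 and 2 the 3′ probe sets of the controls Gapdh and beta-actin exceeded their 5′ probe sets, a sign of RNA quality, by 0.71 to 1.498 on the log2 scale, against 0.00 to 0.16 in knockouts 3 and 4 and 0.13 to 0.22 in controls. Mean levels of the 9 hybridisation control probe sets were 11.07 to 12.01, 8.76 to 9.25 and 9.79 to 10.83 in the same order, so no control array shared a range with either knockout set. A difference from control cannot be told apart from a difference of array set. By Xist and Kdm5d all 8 control arrays were male, while each knockout set of 8 held 4 females. Knockout 1 was female in the proximal maxilla and male in the other parts, and knockout 2 was the reverse, so numbers 1 and 2 do not each mark 1 embryo. Results that join arrays by number are therefore also given with these numbers exchanged in the proximal maxilla, where that changes them. Tgfbr1 itself was at 12.07 to 12.64 in knockouts 1 and 2 and at 12.32 to 12.52 in knockouts 3 and 4, against 11.98 to 12.69 in controls. Its probe set was not shown to lie in the deleted part, so it checks nothing.

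The control mandible arrays numbered 2 ran against their end labels. Alx1, a homeobox gene of the facial midline, was higher in the distal than in the proximal mandible by 3.49, 4.44, 5.60 and 5.54 in knockouts 1 to 4 and by 5.67 in control 1, but control 2 gave -5.99. Barx1, a proximal marker, gave -0.97, -1.13, -1.15 and -0.57 in the knockouts and -1.08 in control 1, but 1.33 in control 2. The labels were kept, and comparisons of ends are given with and without these 2 arrays. Averages over both ends of a jaw are the same whichever way the ends are named. In the maxilla, the control distal array numbered 1 stood low in Msx1 (9.12, against 12.79 in number 2) and in the epithelial keratin Krt14 (8.14, against 11.92).

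The tissue labels were checked with marker lists. All 4 mandible markers (Hand2, Dlx5, Dlx6, Hand1) were measured, and their summed log2 level was 38.3 to 41.7 in knockout mandible against 29.2 to 34.6 in knockout maxilla. In controls the sums were 39.9 to 42.4 in mandible and 32.6 to 35.1 in maxilla, so the jaws did not overlap in either genotype. The 4 maxilla markers (Meox2, Tbx22, Shox2, Pou3f3) overlapped between jaws, at 30.9 to 40.6 in knockout mandible and 32.9 to 43.9 in knockout maxilla. For the epithelium, 13 of 14 listed markers were measured and all 13 passed the filter, so every part held epithelium as well as mesenchyme. Their summed level was 130.8 to 141.9 in knockouts 1 and 2 and 134.8 to 143.4 in knockouts 3 and 4, against 123.2 to 141.1 in controls. All 6 facial mesenchyme markers passed too, with sums of 61.5 to 71.7 and 66.0 to 73.2 in the knockout sets, against 66.2 to 73.7 in controls. In tissue of mixed cells, fewer cells of a type and less RNA per cell cannot be told apart.

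Across all 4 parts no member passed the test between genotypes, and no gene of the 13837 did (0%; limma with Benjamini-Hochberg adjustment over all genes, adjusted p under 0.05, on the means of the 4 parts for each array number). At an unadjusted p under 0.05 limma gave 965 genes (6.97%) and 1 member, Nog. The median difference of the 10 members was -0.24, against -0.05 over all genes tested. For 4 members, Bmp2, Bmp5, Nog and Grem1, all 4 knockout means lay below both control means, and 15.4% of all genes did so. Levels on every array are shown in the plot of the 10 genes by jaw part.

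**Figure D1:**
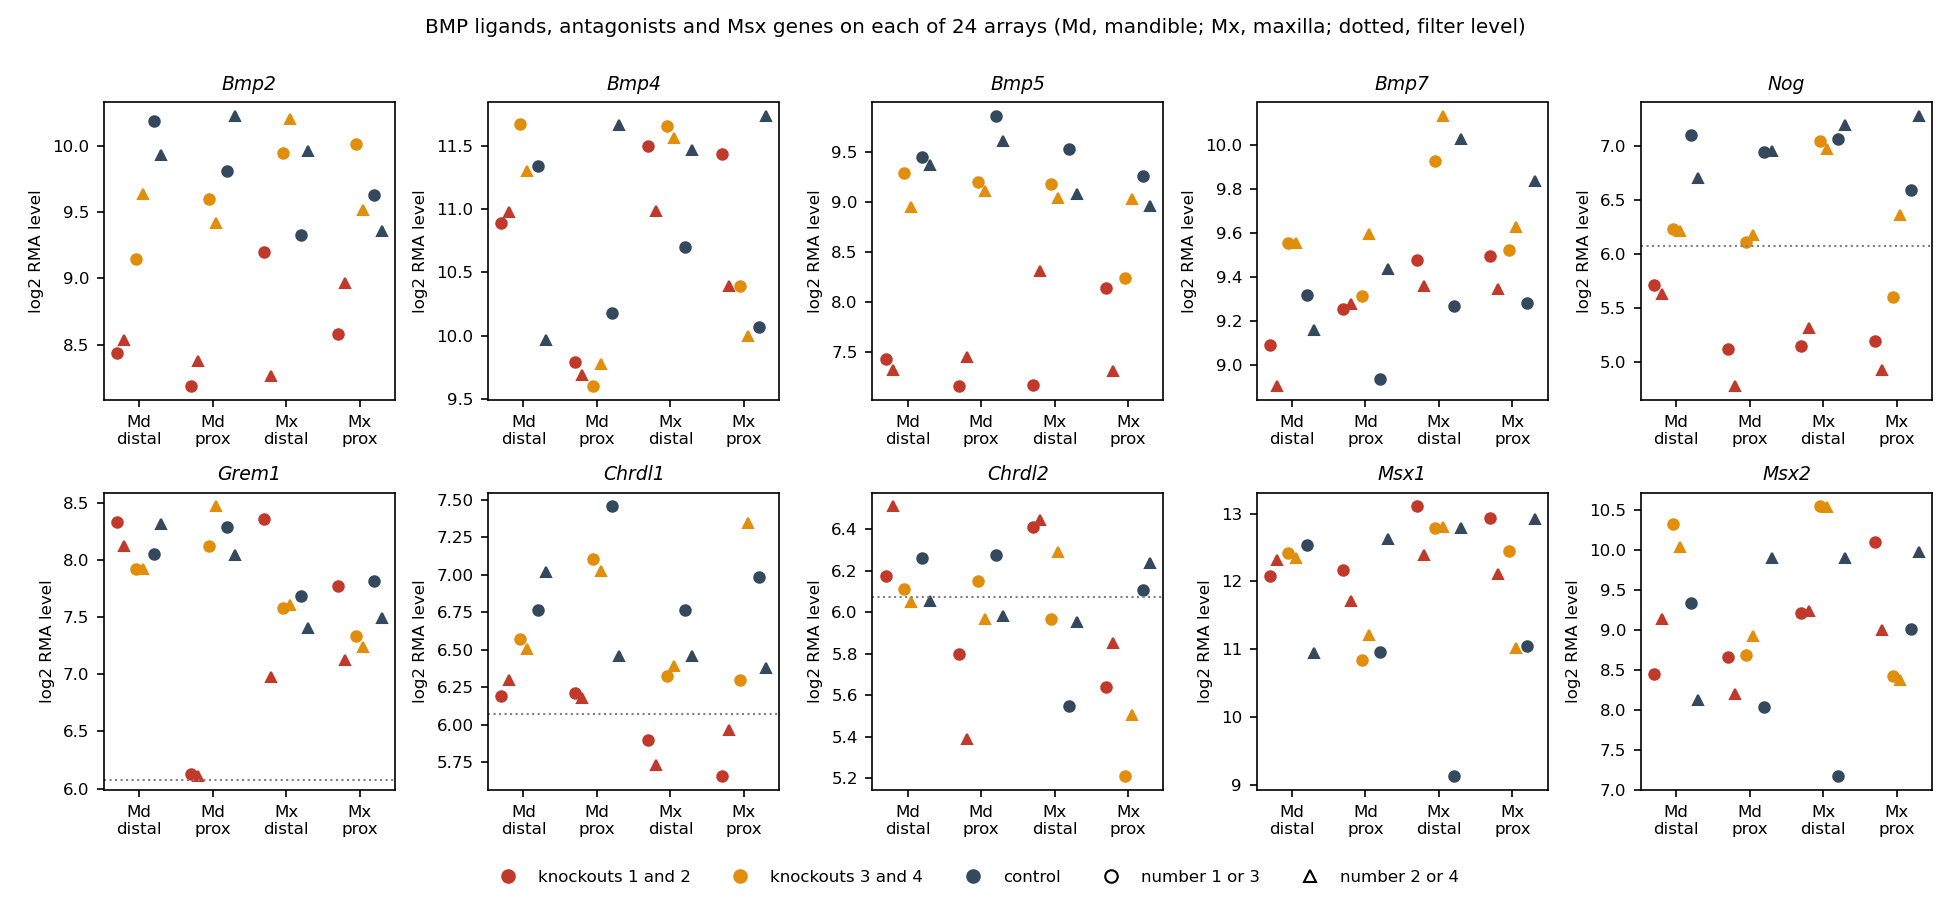
Log2 RMA level (vertical axis) of each gene in the 4 jaw parts (horizontal axis) on all 24 arrays, with knockouts 1 and 2 in red, knockouts 3 and 4 in orange and controls in blue. The dotted line is the filter level of 6.07. Nog lies below both control arrays on all 16 knockout arrays, and the Msx1 control arrays spread from 9.12 to 12.92.

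Among the antagonists, Nog (noggin), which binds BMP2 and BMP4 with high affinity, stood lowest against control. In the distal mandible Nog was at 5.72, 5.63, 6.24 and 6.22 in knockouts 1 to 4, against 7.10 and 6.70 in controls. In the proximal mandible it was at 5.12, 4.78, 6.11 and 6.18 in knockouts, against 6.94 and 6.95 in controls. All 4 knockout arrays lay below both control arrays in both ends of the mandible. In the distal maxilla Nog was at 5.15, 5.31, 7.05 and 6.97 in knockouts, against 7.07 and 7.19 in controls, so that knockouts 3 and 4 came close to control. In the proximal maxilla the levels were 5.19, 4.93, 5.60 and 6.37 in knockouts, against 6.59 and 7.28 in controls.

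Nog thus lay below its controls on 16 of 16 knockout arrays and in 4 of 4 parts, and it was the only member to do so. The share of all genes with knockout arrays wholly below control was 16.3% in the distal mandible and 13.2% in the proximal mandible. It was 10.7% in the distal maxilla and 6.43% in the proximal maxilla. The share of genes below control in all 4 parts at once is not given here. The parts share array sets, so these shares cannot be multiplied. Over the 4 parts Nog averaged 5.79 ± 0.65 in knockouts (SD, n = 4 array numbers) and 6.98 ± 0.08 in controls (SD, n = 2), a difference of -1.19 ± 0.41 (SE; limma adjusted p = 0.71). Left without either control number, the difference was -1.25 or -1.14. Nog passed the filter level of 6.07 on 15 arrays, and its mean of 5.23 in knockouts 1 and 2 lies below it, so the size of its difference there is poorly measured.

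Nog was lower in knockouts 1 and 2 than in controls (-1.75 ± 0.09, SE, n = 2 array numbers against 2; limma adjusted p = 0.0015). Knockouts 3 and 4 differed from control by -0.64 ± 0.09 (adjusted p = 0.058), just outside the threshold. That value was called with a trended and robust variance (limma adjusted p = 0.037) and with all 6 means in 1 fit (0.028). In the test of the sets themselves Nog was lower in knockouts 1 and 2 than in knockouts 3 and 4 (-1.11 ± 0.09, adjusted p = 0.00034). The depth of the shortfall therefore moved with the array set, and the 3′ excess and the erythroid and endothelium markers moved with it. The 5 erythroid markers measured of 7 listed had summed log2 levels of 62.2 to 66.1 in knockouts 1 and 2 and 53.3 to 55.9 in knockouts 3 and 4, against 55.9 to 57.2 in controls. The 6 endothelium markers, all measured, summed to 45.2 to 52.4 in knockouts 1 and 2 and to 53.3 to 57.1 in knockouts 3 and 4, against 53.9 to 56.3 in controls. Their part in the result was not tested.

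Chrdl1 (chordin-like 1), an X-linked antagonist of BMP4, was the other antagonist called in knockouts 1 and 2. Its levels there were 6.19 and 6.30 in the distal mandible, 6.21 and 6.18 in the proximal mandible, 5.90 and 5.74 in the distal maxilla and 5.66 and 5.97 in the proximal maxilla. Controls had 6.77 and 7.02, 7.46 and 6.46, 6.76 and 6.46, and 6.98 and 6.38 in the same parts. By the means of the 4 parts, 45.4% of all genes had knockouts 1 and 2 wholly below controls. Like Bmp2, Bmp5 and Nog, Chrdl1 had both arrays of knockouts 1 and 2 below both control arrays in each part. That is a stricter count than the one by means, and its share over all genes is not given here. The difference over parts was -0.77 ± 0.15 (limma adjusted p = 0.013), and it lost its call without knockout 1 (adjusted p = 0.0995), without knockout 2 (0.080) and with array sex as a covariate (0.16). Knockouts 3 and 4 had 6.57 and 6.50, 7.10 and 7.03, 6.33 and 6.39, and 6.30 and 7.35, and differed from control by -0.09 ± 0.17 (adjusted p = 0.77). That size depends on the probe set. Of the other 3 Chrdl1 probe sets (r = 0.75, 0.88 and 0.62 with the first), 2 gave -0.56 and -0.77 in knockouts 3 and 4 and -0.62 and -2.03 in knockouts 1 and 2, and the remaining one exceeded the filter level on 0 arrays. The mean of all 4 gave -0.39 ± 0.24 in knockouts 3 and 4 (adjusted p = 0.36) and -0.90 ± 0.21 in knockouts 1 and 2 (0.019). Several of these values lie near the filter level, which limits the precision of the sizes.

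Grem1 (gremlin 1), an antagonist of BMP2 and BMP4 that limits BMP signalling in limb mesenchyme, differed most by place within knockouts 1 and 2. In the proximal mandible it was at 6.13 and 6.11 in knockouts 1 and 2 and at 8.12 and 8.47 in knockouts 3 and 4, against 8.28 and 8.04 in controls. In the distal mandible the 3 sets lay close together, with 8.33 and 8.12 in knockouts 1 and 2, 7.92 and 7.92 in knockouts 3 and 4, and 8.05 and 8.32 in controls. The 2 lowest Grem1 values of the 24 arrays were those of knockouts 1 and 2 in the proximal mandible. In the maxilla Grem1 was at 8.36, 6.97, 7.58 and 7.61 in the distal ends of knockouts 1 to 4 and at 7.77, 7.12, 7.34 and 7.24 in their proximal ends. Controls had 7.68 and 7.40 in the distal and 7.81 and 7.49 in the proximal maxilla. Knockout 2 thus lay below both controls in both ends of the maxilla, as did knockouts 3 and 4 in the proximal end. Over the 4 parts Grem1 differed from control by -0.52 ± 0.20 in knockouts 1 and 2 (limma adjusted p = 0.087) and by -0.11 ± 0.07 in knockouts 3 and 4 (0.40). With knockouts 1 and 2 exchanged in the proximal maxilla, as the sex of the arrays reads, the first of these was called (-0.52 ± 0.12, adjusted p = 0.019), and so was the difference between the knockout sets (-0.41 ± 0.10, 0.014).

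Chrdl2 (chordin-like 2) was dim, passing the filter level on 11 of 24 arrays, with levels from 5.21 to 6.51. In the distal maxilla it was at 6.41, 6.45, 5.97 and 6.29 in knockouts, against 5.55 and 5.95 in controls. In the proximal maxilla it was at 5.64, 5.85, 5.21 and 5.50 in knockouts, against 6.11 and 6.24 in controls. The groups did not overlap in either end, and the 2 ends ran in opposite directions. Knockout minus control was 0.53 ± 0.21 in the distal maxilla (limma adjusted p = 0.90) and -0.62 ± 0.21 in the proximal maxilla (0.53), neither past the threshold. The test of genotype by end over both jaws gave 0.75 ± 0.21 (unadjusted p = 0.0021, adjusted p = 1). In that test no gene was called (0%), and 157 genes (1.13%) had an unadjusted p under 0.05 in limma.

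Of the ligands, Bmp5, a ligand expressed in skeletal condensations, was called in knockouts 1 and 2. In the distal mandible it was at 7.43, 7.32, 9.29 and 8.95 in knockouts, against 9.45 and 9.38 in controls. In the proximal mandible it was at 7.15, 7.45, 9.21 and 9.11 in knockouts, against 9.86 and 9.61 in controls. All knockout arrays of the mandible lay below control, and knockouts 3 and 4 stood closer to it than knockouts 1 and 2. In the maxilla Bmp5 was at 7.17, 8.31, 9.18 and 9.04 in distal and at 8.14, 7.31, 8.24 and 9.03 in proximal knockout ends. Controls had 9.54 and 9.08 in the distal and 9.26 and 8.97 in the proximal maxilla, so 14 of 16 knockout arrays lay below both controls of their part.

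Over the 4 parts Bmp5 differed from control by -1.86 ± 0.12 in knockouts 1 and 2 (limma adjusted p = 0.0015) and by -0.39 ± 0.11 in knockouts 3 and 4 (0.13). Without control number 2, which leaves 1 control mean, the second of these was -0.52. In that setting Msx1 and Msx2 stood above control in knockouts 3 and 4, by 1.07 and 1.10. Between the knockout sets Bmp5 differed by -1.47 ± 0.08 (limma adjusted p = 0.00015). The other 2 Bmp5 probe sets followed the first over the 24 arrays (r = 0.97 and 0.94), with differences from control of -1.70 and -1.39 in knockouts 1 and 2 and of -0.20 and -0.05 in knockouts 3 and 4. Cartilage markers moved with the sets as well. All 8 were measured, and their summed log2 level was 62.7 to 69.8 in knockouts 1 and 2 and 67.8 to 78.2 in knockouts 3 and 4, against 72.8 to 85.5 in controls. Their part in the Bmp5 values was not tested.

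Bmp2, a ligand produced in facial epithelium and mesenchyme, was lower in knockouts 1 and 2 than in controls and than in knockouts 3 and 4. In the distal mandible Bmp2 was at 8.44, 8.53, 9.15 and 9.63 in knockouts, against 10.19 and 9.93 in controls. In the proximal mandible it was at 8.19, 8.37, 9.60 and 9.41 in knockouts, against 9.81 and 10.22 in controls. Both ends of the mandible thus had all knockout arrays below control. In the maxilla the levels were 9.20, 8.26, 9.95 and 10.20 in distal and 8.58, 8.97, 10.01 and 9.52 in proximal knockout ends, against 9.32 and 9.96 in distal and 9.63 and 9.35 in proximal control ends. There knockouts 3 and 4 lay between or above the controls. Bmp2 differed from control by -1.23 ± 0.08 in knockouts 1 and 2 (limma adjusted p = 0.0016) and by -0.12 ± 0.07 in knockouts 3 and 4 (0.33), and the sets differed by -1.12 ± 0.07 (0.00018). Knockout minus control was -1.12 ± 0.51 in each end of the mandible and -0.22 ± 0.51 and -0.24 ± 0.51 in the proximal and distal maxilla, where knockouts 3 and 4 alone gave 0.28 and 0.43. The difference between the jaws was not called (-0.89 ± 0.51, adjusted p = 1).

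Bmp4, the ligand that sustains Msx genes in the jaw, had no called difference between genotypes over the 4 parts. It averaged 10.73 ± 0.18 in knockouts (SD, n = 4) and 10.89 ± 0.45 in controls (SD, n = 2), a difference of -0.16 ± 0.21 (limma adjusted p = 0.77). It was -0.48 without control 1 and 0.16 without control 2, so its sign hangs on the control used. In the distal mandible Bmp4 was at 10.89, 10.98, 11.67 and 11.30 in knockouts, against 11.34 and 9.96 in controls. In the proximal mandible it was at 9.79, 9.69, 9.60 and 9.78 in knockouts, against 10.18 and 11.67 in controls. The knockout proximal mandible held the 4 lowest Bmp4 values of the 24 arrays, whereas the control array numbered 2 of that part stood near the distal level. In the maxilla the levels were 11.50, 10.99, 11.66 and 11.56 in distal and 11.43, 10.39, 10.39 and 9.999 in proximal knockout ends, against 10.70 and 11.47 in distal and 10.07 and 11.74 in proximal control ends.

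Knockout minus control for Bmp4 was -1.21 ± 0.48 in the proximal mandible (limma adjusted p = 0.56) and 0.56 ± 0.48 in the distal mandible (0.63). Without the control mandible arrays numbered 2 these became -0.46 and -0.13, so the distal value turned its direction. Control number 2 therefore decides the contrast between ends that the labelled arrays give for Bmp4.

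Bmp7, a ligand of epithelium and mesenchyme, had a narrow range of 8.90 to 10.13 over the 24 arrays. It averaged 9.46 ± 0.23 in knockouts (SD, n = 4) and 9.41 ± 0.29 in controls (SD, n = 2), and the difference of 0.06 ± 0.19 was not called (limma adjusted p = 0.91) and was -0.15 without control 1 and 0.26 without control 2. Between the knockout sets it was lower in knockouts 1 and 2 (-0.38 ± 0.08, adjusted p = 0.0096). That call depends on the probe set. A second Bmp7 probe set ran the other way, at 9.28 in knockouts 1 and 2 and 8.75 in knockouts 3 and 4, and the mean of all 3 Bmp7 probe sets gave 0.04 (adjusted p = 0.76). The call was also lost when arrays were centred on their medians (-0.20, adjusted p = 0.080), without knockout 4 (-0.30, 0.068) and with all 6 means in 1 fit (0.062).

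Msx1, a homeobox repressor of odontogenic and palatal mesenchyme, was the member whose 2 control means spread most. In the distal mandible Msx1 was at 12.08, 12.31, 12.42 and 12.35 in knockouts, against 12.53 and 10.95 in controls. In the proximal mandible it was at 12.16, 11.71, 10.84 and 11.21 in knockouts, against 10.96 and 12.62 in controls. In each end the knockout arrays lay between or near 2 controls that differed by over 1 log2 unit. In the maxilla the levels were 13.11, 12.39, 12.78 and 12.81 in distal and 12.94, 12.11, 12.44 and 11.02 in proximal knockout ends, against 9.12 and 12.79 in distal and 11.05 and 12.92 in proximal control ends.

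Over the 4 parts Msx1 averaged 12.17 ± 0.30 in knockouts (SD, n = 4) and 11.62 ± 0.99 in controls (SD, n = 2), a difference of 0.55 ± 0.41 (limma adjusted p = 0.71). Control 1 averaged 10.92 and control 2 averaged 12.32, so the difference was -0.15 without control 1 and 1.25 without control 2. In the distal maxilla knockout minus control was 1.82 ± 0.78 (adjusted p = 0.90), a value of -0.02 without control 1 and 3.65 without control 2. The sign of Msx1 therefore hangs on which control array is used. Its second probe set correlated with the first at r = 0.98.

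Msx2, the paralogue expressed in distal mesenchyme and in epithelium, behaved much alike. It was at 8.45, 9.13, 10.32 and 10.04 in the distal and 8.65, 8.20, 8.69 and 8.92 in the proximal knockout mandible, against 9.33 and 8.12 in the distal and 8.03 and 9.90 in the proximal control mandible. In the maxilla it was at 9.22, 9.24, 10.55 and 10.53 in distal and 10.10, 9.002, 8.42 and 8.38 in proximal knockout ends, against 7.16 and 9.90 in distal and 9.02 and 9.98 in proximal control ends. Within knockouts 3 and 4 the distal ends stood above the proximal ends in both jaws, while the ends overlapped in knockouts 1 and 2. Msx2 averaged 9.24 ± 0.29 in knockouts (SD, n = 4) and 8.93 ± 0.77 in controls (SD, n = 2), a difference of 0.31 ± 0.34 (limma adjusted p = 0.74). The difference was -0.24 without control 1 and 0.85 without control 2. Knockouts 1 and 2 against control gave 0.07 ± 0.37 (0.89), which was called lower without control 1 (-0.48, adjusted p = 0.033) and higher without control 2 (0.61, 0.014). Between the sets it was lower in knockouts 1 and 2 (-0.48 ± 0.09, adjusted p = 0.0050), a call lost with all 6 means in 1 fit (0.25). A second Msx2 probe set did not exceed the filter level on any array.

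Counted together, 4 of the 10 members (Bmp2, Bmp5, Nog and Chrdl1) were lower and 0 were higher in knockouts 1 and 2 than in controls. In that comparison 52.6% of all genes were called, 31.7% of them lower and 20.9% higher as shares of all genes tested, so the members' share is near the background. In knockouts 3 and 4 no member was called against controls, where 1.56% of genes were, while 2 members (Bmp5 and Nog) had an unadjusted p under 0.05 in limma, as did 26.8% of genes. Both comparisons share the same controls. Knockouts 1 and 2 against knockouts 3 and 4 had 6 of 10 members lower and 0 higher, with 64.9% of all genes called, 36.2% lower and 28.7% higher. With the numbers exchanged in the proximal maxilla 5 and 8 members were called in the comparisons of knockouts 1 and 2 with controls and with knockouts 3 and 4, the additions being Grem1 in both and Msx1 (0.37 ± 0.11, adjusted p = 0.026) in the second. All genes were then called at 49.8% and 62.3%. The medians over the 10 members were -0.35, -0.11 and -0.45 in these 3 comparisons, against -0.06, -0.03 and -0.04 over all genes tested. With 3′ excess as a covariate 2 members, Bmp5 and Nog, were called lower over all parts of all knockouts. The share of all genes called in that fit is not given here. In knockouts 1 and 2 against controls the same covariate left no member called. That covariate and array set nearly coincide, and the standard error of Msx1, for example, then grew to 6.08.

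**Figure D2:**
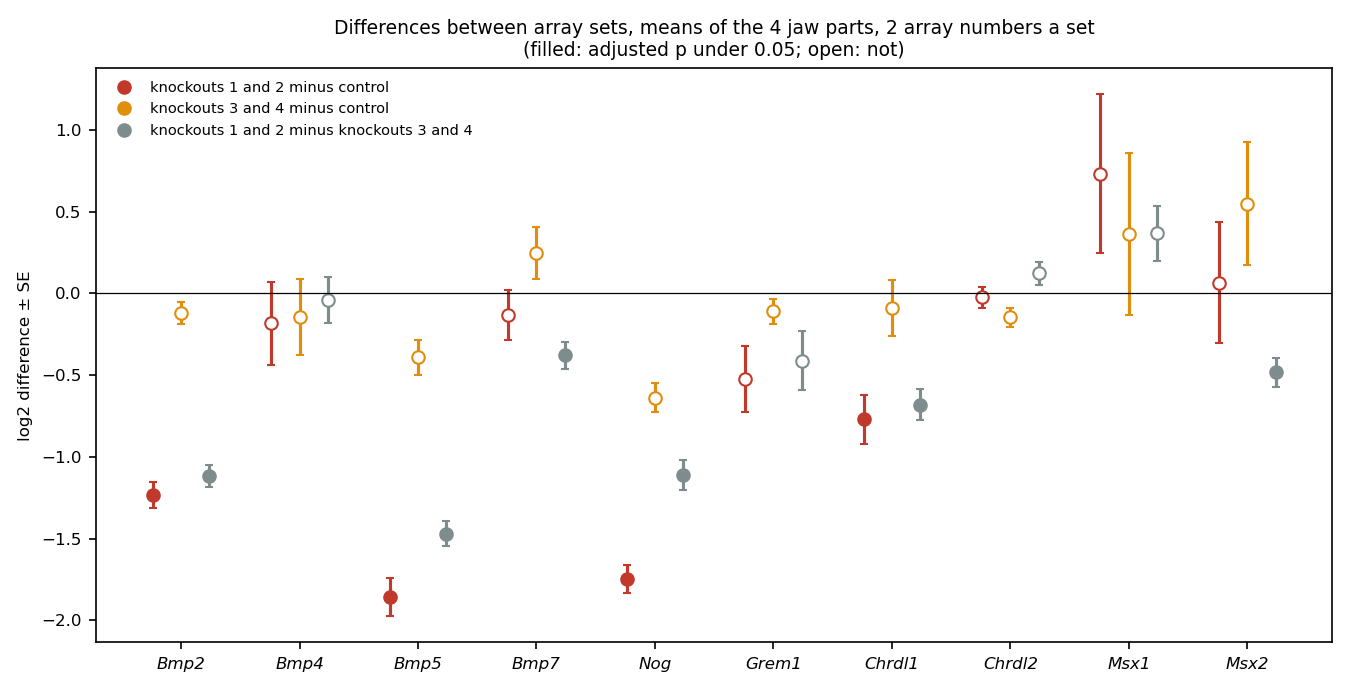
Log2 difference (vertical axis, ± SE) of each gene between array sets, from the means of the 4 jaw parts with 2 array numbers in each set. Filled points passed an adjusted p of 0.05 and open points did not. Nog, Bmp5 and Bmp2 stand lowest in knockouts 1 and 2 against controls (-1.75, -1.86 and -1.23), and no point of knockouts 3 and 4 against controls is filled.

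Within the single parts, no member passed the test between genotypes. The share of genes called there was 0.0145% in the distal mandible, 0% in the proximal mandible, 0.00723% in the distal maxilla and 0.00723% in the proximal maxilla. All 4 knockout arrays lay below both controls for 4 members in the distal mandible (Bmp2, Bmp5, Nog and Chrdl1) and for 4 in the proximal mandible (Bmp2, Bmp4, Bmp5 and Nog), against 16.3% and 13.2% of all genes. In the distal maxilla this held for 2 members (Nog and Chrdl1), against 10.7% of genes, with 1 member (Chrdl2) wholly above, against 5.68% of genes above. In the proximal maxilla it held for 2 (Nog and Chrdl2), against 6.43% of genes. When each part was fitted with knockouts 1 and 2 alone, Nog and Bmp5 were called lower in all 4 parts, with differences from -1.997 to -1.23 for Nog and from -2.44 to -1.39 for Bmp5. Those fits called 18.7% of all genes lower in the proximal mandible, 24.9% in the distal mandible, 10.9% in the proximal maxilla and 15.4% in the distal maxilla. With knockouts 3 and 4 alone the only member called was Chrdl2 in the proximal maxilla (-0.82, adjusted p = 0.043), where 2.12% of genes were called, against 1.57%, 2.03% and 1.63% in the proximal mandible, distal mandible and distal maxilla.

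The comparison of ends asks where along each jaw a gene is stronger. Within the knockouts Bmp4 lay above its proximal level in the distal mandible in all 4 array numbers, with differences of 1.10, 1.29, 2.08 and 1.52. The 4 distal arrays lay wholly above the 4 proximal ones, as did 1.54% of all genes, yet the mean of 1.498 ± 0.39 did not pass (limma unadjusted p = 0.0013, adjusted p = 0.25), with 0.0578% of genes called. In the maxilla the 4 knockout differences were 0.06, 0.59, 1.26 and 1.56, with a mean of 0.87 ± 0.39 (adjusted p = 1). Matched by sex, the first 2 became 1.10 (knockout 1 distal with knockout 2 proximal) and -0.45 (knockout 2 distal with knockout 1 proximal). The control differences in the mandible were 1.16 in number 1 and -1.70 in number 2, the array pair that ran against its labels. Bmp4 distal minus proximal over both jaws in controls was -0.04 ± 0.39 and became 0.67 ± 0.41 without that pair (adjusted p = 1 in both).

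For Msx1 and Msx2 the distance between the ends varied widely among the knockouts. In the mandible Msx1 differed between the ends by -0.08 and 0.60 in knockouts 1 and 2 and by 1.59 and 1.14 in knockouts 3 and 4. Msx2 gave -0.21 and 0.93 in knockouts 1 and 2 and 1.63 and 1.11 in knockouts 3 and 4. In the maxilla Msx1 gave 0.18, 0.28, 0.34 and 1.79 in knockouts 1 to 4, and Msx2 gave -0.88, 0.23, 2.13 and 2.16. Matched by sex, knockouts 1 and 2 gave 1.01 and -0.55 for Msx1 and 0.21 and -0.86 for Msx2 in the maxilla. Whether the 2 sets differ in this was not tested. None of these was called over the 4 knockouts, the means being 0.81 ± 0.63 and 0.87 ± 0.60 in the mandible and 0.65 ± 0.63 and 0.91 ± 0.60 in the maxilla for Msx1 and Msx2 in turn. In the control mandible Msx1 gave 1.57 and -1.68 and Msx2 gave 1.31 and -1.78 in numbers 1 and 2.

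The ends also differed in the antagonists Grem1 and Chrdl2, in some arrays only. Distal minus proximal in the mandible was 2.20 and 2.02 for Grem1 in knockouts 1 and 2 and -0.20 and -0.55 in knockouts 3 and 4, and controls gave -0.23 and 0.28. Fitted with knockouts 1 and 2 alone the difference was 2.11 (limma adjusted p = 0.049, with 0.332% of genes called), with knockouts 3 and 4 alone it was -0.37 (0.85, with 0.0145% of genes called), and over all 4 it was 0.87 ± 0.42 (1). Chrdl2 distal minus proximal in the maxilla was 0.77, 0.59, 0.76 and 0.79 in knockouts 1 to 4, with the 4 distal arrays wholly above the 4 proximal ones, as for 0.947% of genes. Its mean of 0.73 ± 0.17 had an unadjusted p of 0.00047 and an adjusted p of 0.45, with 0.00723% of genes called. Matched by sex the first 2 were 0.56 and 0.81. The control maxilla gave -0.56 and -0.28. All these levels lie near the filter level.

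**Figure D3:**
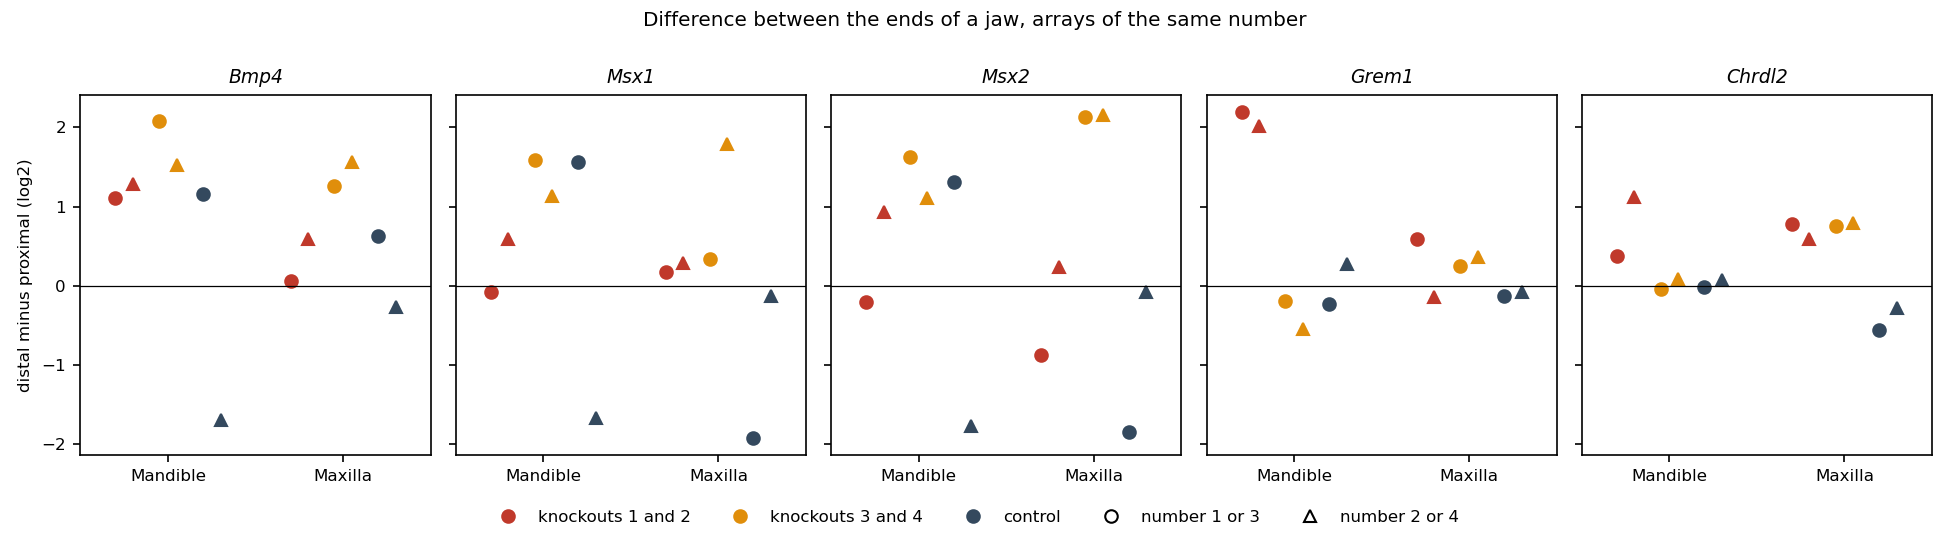
Log2 difference between distal and proximal ends (vertical axis) in mandible and maxilla (horizontal axis) for arrays of the same number, for 5 genes, with knockouts 1 and 2 in red, knockouts 3 and 4 in orange and controls in blue. Bmp4 is above 0 in the 8 knockout pairs as numbered, 1 of which would be at -0.45 if matched by sex, and control number 2 (blue triangle) lies at -1.70, -1.68 and -1.78 for Bmp4, Msx1 and Msx2 in the mandible.

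Between jaws no member was called in knockouts (2.36% of genes called) or in controls (0.181%). Bmp7 lay below its maxilla level in the mandible in all 8 knockout pairs, with differences of -0.58 to -0.37 in the distal and -0.24 to -0.03 in the proximal ends (also below in all pairs when matched by sex), with a mean of -0.29 ± 0.15 (limma adjusted p = 0.53). In controls the Bmp7 mean was -0.39 ± 0.21 (0.95). The share of all genes on 1 side in all 8 knockout pairs is not given here. Under 16 alternatives, the mean of all probe sets among them, the Bmp7 mean in knockouts was -0.33 to -0.24 and never called. Bmp4 was at -0.53 ± 0.28 (0.59) and Msx1 at -0.56 ± 0.45 (0.90) in knockouts. Grem1 stood above the maxilla in all 4 control pairs, by 0.37 and 0.91 in the distal and 0.47 and 0.55 in the proximal ends, and all 4 mandible arrays lay above all 4 maxilla arrays, as for 3.43% of genes. Its mean there was 0.57 ± 0.42 (adjusted p = 1). In knockouts 3 and 4 alone Grem1 was higher in the mandible by 0.67 (adjusted p = 0.045, with 0.354% of genes called), whereas over all knockouts it gave 0.14 ± 0.30 (0.98). Neither test of genotype by jaw or by end called any gene (0% each). For genotype by end, 2 members (Bmp4 and Chrdl2) had an unadjusted p under 0.05 in limma, as did 1.13% of genes. Bmp4 gave 1.23 ± 0.48 there, which became 0.51 ± 0.47 without the control mandible arrays numbered 2, while Chrdl2 became 0.78 ± 0.25. For genotype by jaw no member did, and 107 genes (0.773%) did.

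Other genes of the pathway were taken from a list of 35 ligands, receptors, Smads, modulators and targets, of which 28 could be tested. In knockouts 1 and 2 against controls 17 were lower and 2 higher. In knockouts 3 and 4 none was called in either direction, and 4 were higher and 18 lower between the knockout sets. Among receptors, Acvr1 (a type I receptor for BMPs) was lower in knockouts 1 and 2 than in controls (-1.78 ± 0.07), as was Bmpr1a (-0.94 ± 0.07), whereas Acvr2b (a type II receptor) was higher by 1.81 ± 0.08. Among modulators, Bmper was lower (-2.59 ± 0.20), and so was Twsg1, which binds BMPs together with chordin (-1.13 ± 0.07). Smad6 and Smad7, the inhibitory Smads that BMP signalling induces, were lower (-0.88 ± 0.14 each). Of the Id genes, direct targets of BMP Smads, all 4 were lower, Id1 at -0.40 ± 0.11, Id2 at -0.80 ± 0.10, Id3 at -0.64 ± 0.08 and Id4 at -2.39 ± 0.08. The remaining genes called were Bmp1 (0.40 ± 0.09), Bmp6 (-2.35 ± 0.31), Gdf5 (-0.97 ± 0.09), Bmpr2 (-0.44 ± 0.07), Fst (-0.99 ± 0.19), Fstl1 (-0.32 ± 0.07), Sostdc1 (-0.79 ± 0.22) and Dlx5 (-0.76 ± 0.13). Except for Fstl1, all these genes were also called, in the same direction, between knockouts 1 and 2 and knockouts 3 and 4, together with Smad4 (0.23 ± 0.07), Bmpr1b (0.57 ± 0.12), Bambi (-0.43 ± 0.10) and Hand2 (-0.81 ± 0.22). These values belong to comparisons in which 52.6% and 64.9% of all genes were called.

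In knockouts 3 and 4 against controls the 4 pathway genes with the smallest p were Fstl1 (-0.22 ± 0.05), the BMP antagonist Chrd (-0.47 ± 0.11), Id4 (0.28 ± 0.09) and Id1 (0.29 ± 0.10), with limma adjusted p of 0.10 to 0.17.

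Between jaws the counts were smaller. Hand2, a mandibular transcription factor, was higher in mandible than in maxilla by 4.33 ± 0.46 in knockouts (limma adjusted p = 7.2e-05) and by 4.08 ± 0.65 in controls (0.0092). Dlx5, which acts upstream of Hand2, was higher by 1.28 ± 0.22 in knockouts (0.0040). No other pathway gene was called between jaws, and none between ends.

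After the mean of each array set was removed, the members were correlated with each other across the 24 arrays. These correlations are descriptions, since arrays share parts, array sets and possibly embryos. Msx1 and Msx2 had r = 0.86, Bmp4 and Msx2 had 0.80, and Bmp4 and Msx1 had 0.75. Bmp7 joined them at 0.57 to 0.65. Chrdl1 ran the other way, at -0.75 with Bmp4, -0.70 with Bmp7, -0.68 with Msx1 and -0.67 with Msx2. Bmp5, Bmp2 and Grem1 had weaker relations with these 4, within -0.33 to 0.47.

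**Figure D4:**
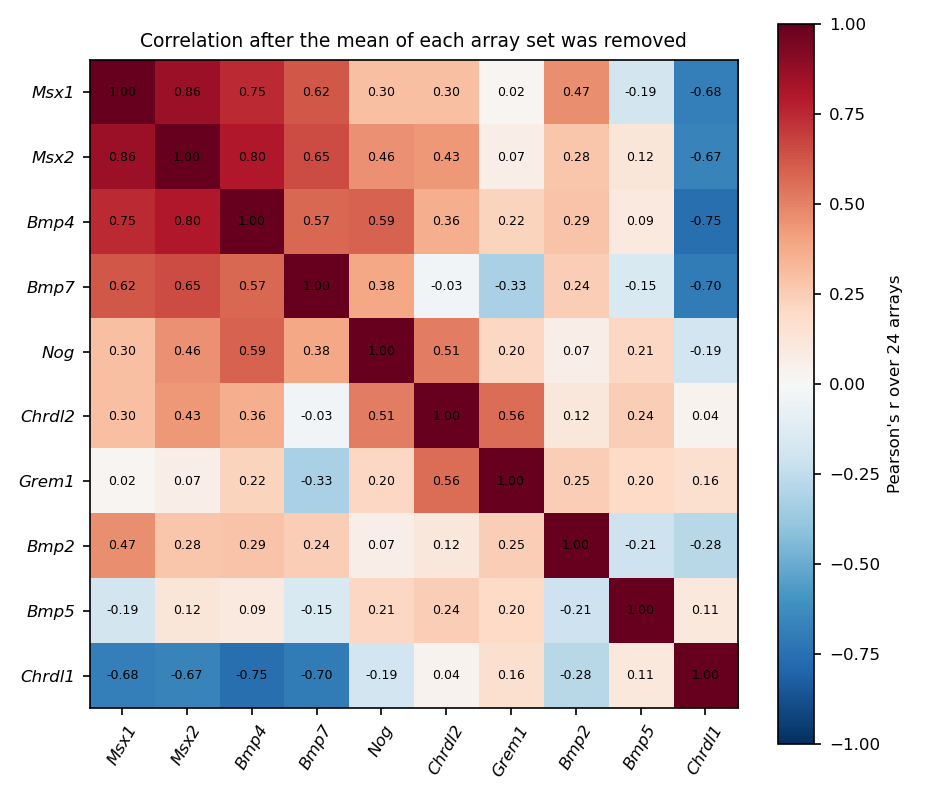
Pearson's r between the log2 levels of each pair of genes (rows and columns) over 24 arrays, after the mean of each array set was subtracted. Msx1, Msx2, Bmp4 and Bmp7 form a block with r of 0.57 to 0.86, and Chrdl1 is negative with all 4 (-0.75 to -0.67).

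The 3 genes most like each member were found by the same measure among all genes tested. For Bmp4 they were Dkk1, a WNT inhibitor (r = 0.95), Bambi, a BMP pseudoreceptor (0.95), and Kif26b (0.93). Within each set alone Bambi kept r = 0.83 in knockouts 1 and 2, 1.00 in knockouts 3 and 4 and 0.99 in controls. For Msx1 they were Cachd1 (0.93), Krt14 (0.92) and Cacna2d3 (0.92), and for Msx2 they were Cachd1 (0.89), Aopep (0.88) and Plbd1 (0.88). Krt14 is an epithelial keratin, and its r with Msx1 was 0.40 in knockouts 1 and 2, 0.93 in knockouts 3 and 4 and 0.98 in controls. Bmp7 was most like Bicdl2 (0.89), Tfap2a (0.89) and H2ax (0.88). Chrdl1 was most like the potassium channel gene Kcnh2 (0.91), the Notch ligand Dll1 (0.91) and Pnmal2 (0.90). Nog was most like Ccdc68 (0.82), Fstl3 (0.81) and Lbx2 (0.76). Likeness was weaker for the remaining 4, with top values of 0.81 for Bmp2 (Cryz), 0.75 for Bmp5 (Psmb7), 0.75 for Grem1 (Adgre5) and 0.79 for Chrdl2 (Nat8).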

How the data were processed

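The authors deposited log2 RMA values for 45101 probe sets on 24 arrays, and RMA is named per the submitters' processing notes. Version, background step and annotation are not given in the sources used here. Per the labels, 5 µg of total RNA was labelled for each array. GEO's platform annotation gave 1 symbol to 34945 probe sets, several to 932 and none to 9160, and 64 control features were set aside. For each gene the probe set with the highest mean was kept. Genes above log2 6.07 (the 40th percentile of all values) on at least 2 arrays were tested.

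Tests were 2-sided and fitted by lmFit and eBayes of limma 3.58.1 (R 4.3.3), with Benjamini-Hochberg adjustment over 13837 genes and a threshold of 0.05. Comparisons over all parts used the means of the 4 parts for each genotype and array number. Parts, jaws, ends and interactions were contrasts of 1 fit of 24 arrays with 8 group means. The script recovered most of the changes put into simulated data, which held independent noise and no difference between array sets. That run checks the code and says nothing about the power of the tests here. The number of arrays, not a count, limits the precision.

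Members and gene lists were chosen with earlier results of these data known. Always named were the 10 members, pathway genes when called (or, per comparison, among the 4 with the smallest p), and the 3 genes most like each member. Alx1, Barx1 and Krt14 were chosen after their values were seen, as were the promoter motifs.

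Arrays of the same number came from titles. Deviations of knockout arrays of the same number correlated at 0.378 to 0.830 in all 24 pairs (median 0.708), but the other number of the same set gave 0.296 to 0.773 (median 0.696). The sex of the arrays differs within numbers 1 and 2, so those numbers do not mark embryos, and the block is an alternative only. Knockout and control arrays of the same number gave -0.500 to 0.299 and are not pairs. No 2 arrays correlated above 0.9953, and none was counted as a duplicate. RefSeq promoters (GRCm38.p6) were matched by symbol. Alternatives tried were the filter, the probe set rule, centring, variance settings, covariates, replicate block and leaving arrays out.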

Additional observations from a re-analysis of the deposited data

Results flagged for a closer look

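Within groups of 4 arrays, 40 groups of knockout values were checked for an array far from the others. Chance alone would mark about 1 in 20 if the 4 values had 1 common spread. Each group joins both knockout sets, so that rate need not hold, and an array far from the other of its set can be missed. Bmp7 in the knockout proximal mandible was the 1 case found, with number 4 at 9.60 and the other 3 at 9.26, 9.28 and 9.31.

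Several members moved in opposite directions in the groups compared, with every array number of each group on its own side. These differences were not tested by themselves unless stated. Chrdl2 distal minus proximal was 0.73 in the knockout maxilla and -0.42 in the control maxilla, and Chrdl2 knockout minus control was 0.53 in the distal and -0.62 in the proximal maxilla. The test over both jaws gave an adjusted p of 1. Msx1 distal minus proximal was 0.65 in the knockout maxilla and -1.03 in the control maxilla, where control numbers 1 and 2 gave -1.93 and -0.13. The Msx1 knockout pairs are on 1 side only by number, since matching by sex gives 1 pair at -0.55. Bmp2 mandible minus maxilla in proximal ends was -0.38 in knockouts and 0.52 in controls. Bmp5 distal minus proximal was -0.32 in the control mandible and 0.20 in the control maxilla, over 2 numbers each, 1 of them the pair that ran against its end labels.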

How the results depend on the processing

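All 15 comparisons were recomputed under the alternatives, giving 2445 values of single members besides the main ones, of which 2200 kept their direction and their side of the threshold, 62 passed it only in the alternative and 11 lost it. Another 155 changed sign from a main value that lay within 1 SE of 0, with no call in either, and 17 turned round from a larger main value or with a call. Counts below are members called out of 10. Where no share of all genes stands beside a count, the background is not given and the count cannot be read as a result about the members. With 3′ excess as a covariate 2 were called over all parts, 0 in knockouts 1 and 2 against control and 1 in the proximal mandible. With the filter at the 60th percentile, 2 of the 7 members left were called in knockouts 1 and 2 against control. In knockouts 3 and 4 against control 1 was called with trend and robust variance and 1 with all 6 means in 1 fit. With knockouts 1 and 2 only, 4 were called over all parts, 4 in the proximal mandible, 3 in the distal mandible, 2 in the proximal maxilla, 4 in the distal maxilla and 1 between the ends of the knockout mandible. Of all genes, those fits called 52.6% over all parts and 0.332% between these ends. In the 4 parts, in the same order, they called 18.7%, 24.9%, 10.9% and 15.4% of genes lower. The counts of members take calls in either direction, so these shares do not cover a member called higher. Chrdl2 in the distal maxilla was above control in all 17 alternatives (0.33 to 0.73) and was called in 2 of them. With knockouts 3 and 4 only, 1 was called in the proximal maxilla (2.12% of genes) and 1 between the jaws of knockouts (0.354% of genes). Leaving out 1 number at a time gave 0 to 4 in knockouts 3 and 4 against control and 0 to 1 in the distal maxilla.

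Over all parts a replicate block uses knockouts 1 and 2 alone against control, and it called 5 members. In the single parts the number terms were shared over parts, so knockouts 3 and 4 still entered those fits. There the block called 3 in the proximal mandible, 4 in the distal mandible, 3 in the proximal maxilla and 5 in the distal maxilla. These numbers are no pairs. In these 5 comparisons, in the order given, the block called 46.2%, 43.2%, 48.5%, 36.0% and 41.4% of all genes. It changed no other member's call within a genotype or in an interaction. Chosen after seeing the data, the block with crossed numbers (knockouts 1 and 2 in the proximal maxilla, or controls in the distal mandible, where r fell to -0.681) called 0 members in jaws, ends and interactions. Also added then, exchanging knockouts 1 and 2 in the proximal maxilla before averaging called 5 members in knockouts 1 and 2 against control and 8 between the knockout sets.

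The 17 values that turned round were, without control 1 against without control 2, Msx1 over all parts (-0.15, 1.25), Msx2 in knockouts 1 and 2 against control (-0.48, 0.61), Bmp4 in the distal mandible (1.25, -0.13), Msx1 (-0.022, 3.65) and Msx2 (-0.0196, 2.72) in the distal maxilla, Chrdl2 between control jaws (-0.0755, 0.44) and Msx1 in genotype by jaw (0.51, -2.23). Without the control mandible arrays numbered 2, a setting added after seeing the data, Bmp4 in the distal mandible was -0.13 and Msx2 between control ends 0.17. With array sex as a covariate Grem1 in knockouts 1 and 2 against control was 0.044. With 3′ excess as a covariate Msx1 there was -1.36, and Bmp7 in knockouts 3 and 4 against control was -0.077. With the mean of all probe sets Bmp7 between the knockout sets was 0.036. With knockouts 3 and 4 only, Grem1 was 0.13 in the proximal mandible and -0.37 between the ends of the knockout mandible. With knockouts 1 and 2 only, Bmp7 and Msx2 between the ends of the knockout maxilla were -0.0019 and -0.32. Causes were not tested. Nog and Chrdl2 lie near the filter level, where small signal limits their sizes.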
